A study of Mus musculus with 768 samples.

Results

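The transcripts of 10 proteins of the S100, annexin and galectin families were followed in single NK cells from mouse tumors. They were 5 S100 proteins (S100a4, S100a6, S100a10, S100a11 and S100a13), 3 annexins (Anxa1, Anxa2 and Anxa6) and 2 galectins (Lgals1 and Lgals3). All 10 symbols had an entry among the 24490 gene entries of both plates. They were chosen on measured values of these same cells. S100a4 had led a cluster in an earlier clustering of the data, and S100a4, Anxa1, Lgals1 and Lgals3 are among the genes that the study itself picked from them. The study listed S100a4 and Lgals3 as higher in PD-1-/- cells and Lgals1 as higher in WT cells. The genotype differences of these members given below are thus not independent of that choice. Their levels are therefore given as a description, with no test.

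The cells were tumor-infiltrating NK cells sorted as NK1.1+ and negative for CD3 and GR1, among the markers of the gate, from MTAP1A tumors (MTAP1A is a fibrosarcoma that arose in a mouse without Tap1). The hosts were either C57BL/6 mice (WT) or PD-1-/- mice on that background, which carry a deletion of part of Pdcd1 in all of their cells and keep its other exons. Adult hosts of both kinds were matched for age and sex and bore the same tumor. Tumors of 3 mice were pooled for each genotype and their cells sorted singly onto 1 plate per pool, so the 2 plates are also the 2 genotypes, which cannot be told apart, and no value has a replicate error. SMART-SEQ2, a full-length method without molecular identifiers, gave 1 library per well. Of 768 wells, 726 with 1000 to 3500 genes above 0 RPKM (reads per kilobase, normalized for the depth of the well) were kept, counting genes present in at least 3 wells. Of these cells 360 were WT and the others PD-1-/-.

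The kept cells had a median of 2264.5 detected genes in WT and 2262.5 in PD-1-/-, and a median of 304641 and 322541 recovered reads. Each of 7 NK markers was present in 89.3% to 100% of the cells of either plate. These markers do not check the CD3-negative part of the label. At least 1 of Cd3d, Cd3e and Cd3g, chains of the CD3 complex against which the cells had been sorted, was above 0 in 18.1% of the cells in WT and 22.7% in PD-1-/-. Pdcd1 was above 0 in 2.5% and 12.8%, and since part of the gene remains it does not check the labels. A myeloid-like marker was seen in 13.1% and 7.10% of the cells, a fibrosarcoma-like marker in 5.83% and 3.01%, a B-like marker in 1.39% and 1.64%, and a neutrophil-like marker in 0.278% and in 0 cells.

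Most S100 proteins are small calcium sensors that work as dimers and bind target proteins when calcium rises. Annexins bind phospholipid membranes in the presence of calcium, and several are held in complexes by an S100 dimer: S100a10 joins Anxa2 and S100a11 joins Anxa1. Galectins bind beta-galactosides on glycoproteins, inside and outside the cell. In lymphocytes these families are known for roles in membrane repair, exocytosis, migration and the tuning of surface receptors.

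All 5 S100 genes lie on mouse chromosome 3 in the RefSeq annotation of GRCm38.p6. S100a13 (chr3:90514233-90524581), S100a4 (chr3:90603770-90606045) and S100a6 (chr3:90612894-90614414) are in 1 stretch with 8 other S100 genes, S100a5 standing between S100a4 and S100a6, while S100a11 (chr3:93520496-93526288) and S100a10 (chr3:93555117-93564645) form a second pair. Anxa2 is at chr9:69453683-69491792, Anxa6 at chr11:54978953-55033471, Anxa1 at chr19:20373434-20390671, Lgals1 at chr15:78926725-78930465 and Lgals3 at chr14:47373860-47386167. The spans of S100a13 and S100a1 overlap in RefSeq. In GENCODE, S100a4 overlaps Gm42674 on the same strand, Anxa1 overlaps 1500015L24Rik on the opposite strand, and Anxa2 overlaps Mir3109 and Gm16144. SMART-SEQ2 does not mark strand, so reads shared by such a pair cannot be told apart. The S100a11 transcript matched 2 other genes at 95% identity or more over at least 100 bases, so its values are uncertain.

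Promoter sequence was at hand for 7 members, and the 100 bases before the RefSeq start are shown for 4 of them. S100a4, S100a6 and Lgals3 are shown because they were the members that differed most between groups of cells, and Anxa2 because nearly every cell had it. All are written 5′ to 3′ on the plus strand of GRCm38.p6, which is the strand of these genes, at chr3:90603670-90603769, chr3:90612794-90612893, chr14:47373760-47373859 and chr9:69453583-69453682 in this order. Capitals mark a TATA box, a GC box or an AP-1 motif.
S100a4: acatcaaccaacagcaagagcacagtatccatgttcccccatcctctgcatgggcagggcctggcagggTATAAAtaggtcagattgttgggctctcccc
S100a6: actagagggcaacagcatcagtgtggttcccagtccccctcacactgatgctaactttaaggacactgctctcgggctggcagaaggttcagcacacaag
Lgals3: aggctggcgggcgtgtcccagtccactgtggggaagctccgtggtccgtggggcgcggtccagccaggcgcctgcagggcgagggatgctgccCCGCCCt
Anxa2: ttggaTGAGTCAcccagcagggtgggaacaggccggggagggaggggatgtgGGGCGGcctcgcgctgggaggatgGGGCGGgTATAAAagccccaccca
The motif searched as a TATA box was TATAAA, and it stood in 3 of the 7 windows (S100a4, Anxa1 and Anxa2), beside 5.56% of 32851 windows of the same length. The GC box, searched as GGGCGG, stood in 3 windows (S100a11, Anxa2 and Lgals3), beside 24.7% of all. An AP-1 motif, TGANTCA in letters, stood in those of S100a11 and Anxa2, beside 2.73% of all, and a T-box motif, AGGTGT in letters, in that of Anxa1, beside 4.49%. Both strands were searched, and in the 7 windows no match overlapped another. The window of S100a6 held none of these letters, and neither did that of S100a13, which precedes a start inside the span given above (chr3:90514335-90514434).

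By mean RPKM, which is per length of gene, the members ran from 1916 to 109.8 RPKM in WT and from 1683 to 124.2 RPKM in PD-1-/- cells. The order in WT was Lgals1, Anxa2, S100a10, S100a6, S100a4, Anxa6, Anxa1, S100a13, S100a11 and Lgals3. The order in PD-1-/- was Anxa2, S100a10, Lgals1, S100a4, S100a6, Anxa6, Anxa1, Lgals3, S100a13 and S100a11. The interquartile ranges over cells of Lgals1, Anxa2 and S100a10 overlapped on both plates, as did those of S100a11 and S100a13. These ranges describe the spread between cells, and the order of the means was not tested. A cell had a median of 8 of the 10 transcripts on both plates, from 2 to 10 in WT and from 3 to 10 in PD-1-/- cells. All 10 occurred together in 30 WT and 38 PD-1-/- cells, and 0 kept cells lacked all of them.

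**Figure D1:**
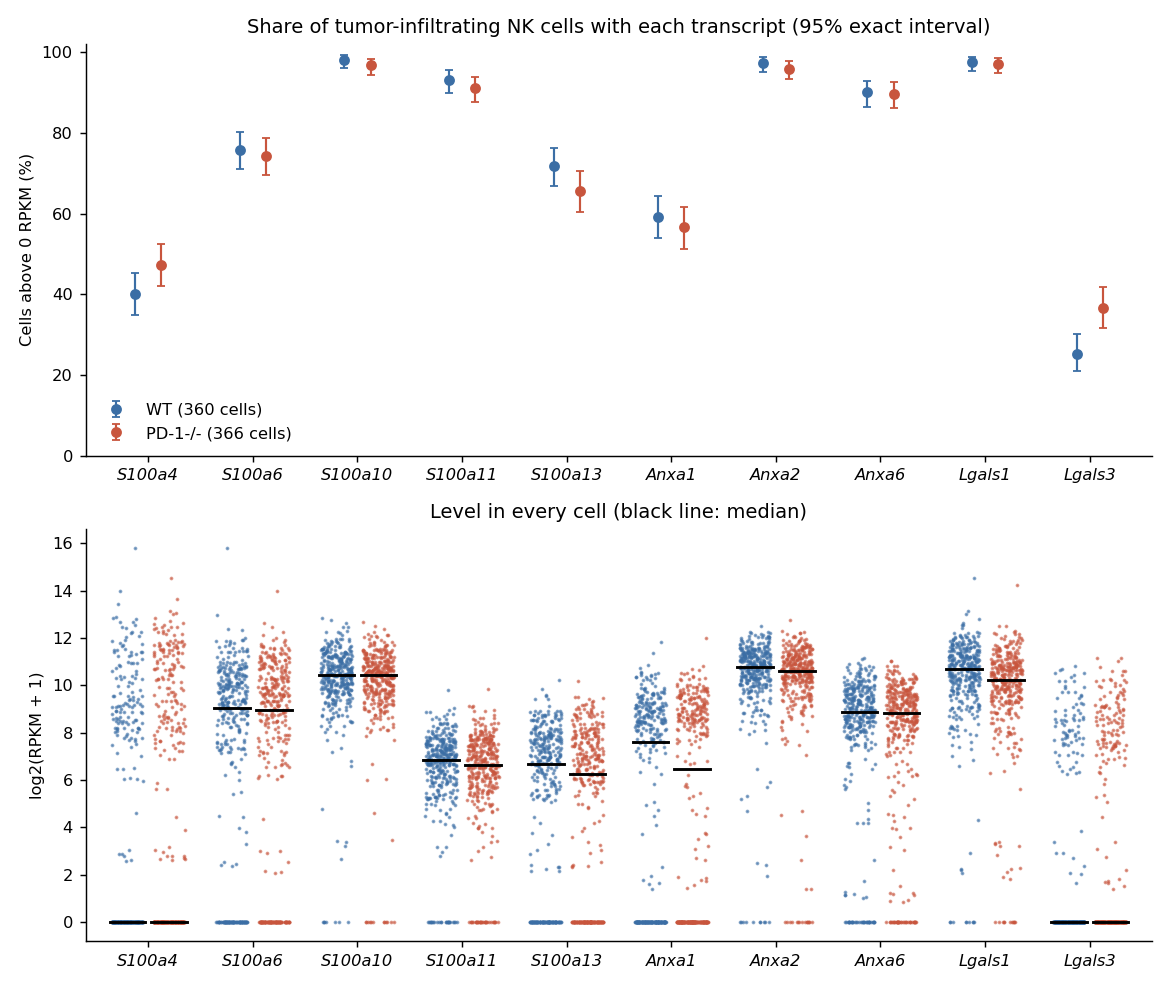
Upper panel: share of kept cells above 0 RPKM (%) for each transcript in WT (blue) and PD-1-/- (red), with exact 95% binomial intervals. Lower panel: log2(RPKM + 1) in every cell, 1 point per cell, with the median as a black line. S100a4 (40% and 47.3%) and Lgals3 (25.3% and 36.6%) were at 0 in most cells of both plates, while S100a10, Anxa2 and Lgals1 were above 0 in at least 95.9% of the cells.

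Among the S100 proteins, S100a10, the partner of annexin A2, had a share of cells above 0 of 98.1% in WT (exact 95% binomial interval 96.03 to 99.2, counting error only, as for all intervals here) and 96.7% in PD-1-/- (94.3 to 98.3). Its level had a median of 1372 RPKM in WT, between 0 and 7299.8 RPKM, and of 1366 RPKM in PD-1-/-, between 0 and 6595 RPKM. S100a11 was nearly as widespread, with shares of 93.1% and 90.98%, but at a mean of only 131.7 and 124.2 RPKM, and its detected values rested on a median of 17 reads on each plate. S100a13, known for carrying proteins out of the cell by a non-classical route, had shares of 71.7% and 65.6% and means of 141.7 and 130.6 RPKM.

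S100a6 (calcyclin) had shares of 75.8% and 74.3%. Its values in WT had a median of 529 RPKM and ran from 0 to 57118 RPKM, and those in PD-1-/- cells had a median of 501 RPKM and ran from 0 to 16228 RPKM. S100a4, which binds non-muscle myosin and is known for cell motility, was the least frequent of the 5, with 40% in WT (34.9 to 45.3) and 47.3% in PD-1-/- (42.1 to 52.5). Its median was 0 on both plates, and the highest cell reached 56238 RPKM in WT and 23382 RPKM in PD-1-/-. Where S100a4 was detected its median was 581 RPKM in WT and 1115 RPKM in PD-1-/- cells. Cells with at least 1000 RPKM of S100a4 numbered 55 in WT (15.3%) and 88 in PD-1-/- (24.04%), and they held 88.03% and 91.2% of all S100a4 RPKM.

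Anxa2 was the most widespread annexin, with shares of 97.2% and 95.9%, medians of 1733 and 1558 RPKM and a highest cell of 5869 and 6994 RPKM. Anxa6, which binds membranes and the cytoskeleton beneath them, had shares of 90% and 89.6% and medians of 471 and 454 RPKM. Anxa1, a mediator of the resolution of inflammation, was above 0 in 59.2% and 56.6% of the cells, and where detected its median was 427 RPKM in WT and 460 RPKM in PD-1-/-. Of its detections 3.76% and 6.28% rested on 1 to 3 reads.

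The galectins stood at opposite ends. Lgals1, a galectin that forms dimers and is known to dampen T cells, had shares of 97.5% in WT and 96.99% in PD-1-/-, with medians of 1648 RPKM (0 to 23386) and 1187 RPKM (0 to 19446). Lgals3, the galectin with a long N-terminal tail that lets it form lattices, was the least frequent member, with 25.3% in WT (20.9 to 30.1) and 36.6% in PD-1-/- (31.7 to 41.8). Where Lgals3 was detected its median was 272.6 and 317.2 RPKM. Of its detections 9.89% and 9.70% rested on 1 to 3 reads, the highest shares among the members, and requiring 10 reads left Lgals3 in 22.2% and 32.5% of the cells.

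The cell with the highest S100a4 of each plate stood apart from the rest. The WT cell, in plate row B, had 7837 recovered reads over 3118 genes, and its 56238 RPKM of S100a4, 57118 RPKM of S100a6, 23386 RPKM of Lgals1 and 3598 RPKM of Anxa1 were each the highest value of the plate. It also had 718 RPKM of Col3a1, 259.5 RPKM of Sparc and 24.3 RPKM of Col1a1, which are fibrosarcoma-like markers, and 4 of the 7 NK markers (Ncr1, Klrb1c, Klrk1 and Klre1) at 0. The PD-1-/- cell, likewise in row B, had 4107 reads, 51 of them from S100a4, and again the highest S100a6, Lgals1 and Anxa1 of its plate, at 16228, 19446 and 4100.0 RPKM. It had 867 RPKM of Sparc, 82.2 RPKM of Col3a1 and 216.4 RPKM of Lyz2, and 5 of the 7 NK markers at 0. Their Anxa2, at 581 and 666 RPKM, and Anxa6, at 86.3 and 86.6 RPKM, were below the medians of their plates. Both cells are among those kept, and ratios that rest on them are also given without them, a choice made after their values were seen.

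Cells with a fibrosarcoma-like marker at 10 RPKM or more numbered 13 in WT and 7 in PD-1-/-. S100a4 was above 0 in 61.5% of those 13 WT cells (31.6 to 86.1), against 39.2% of the remaining ones, and its median was 474 against 0 RPKM. The PD-1-/- shares were 57.1% of 7 (18.4 to 90.1) and 47.1%. The 13 WT cells had a median of 7837 reads and the remaining ones of 306779. Among cells with a myeloid-like marker at that level, 42 in WT and 20 in PD-1-/-, S100a6 was above 0 in 88.1% and 80%, against 74.2% and 73.99% of the cells without one. Lgals3 was above 0 in 35.7% of those WT cells (21.55 to 51.97) and 70% of the PD-1-/- ones (45.7 to 88.1), against 23.9% and 34.7%. S100a4 was above 0 in 50% and 60%, against 38.7% and 46.5%. S100a13 went the other way in WT, at 64.3% against 72.6%.

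The 2 genotypes were compared first. Of the 10 members 0 were at least 2-fold higher and 0 at least 2-fold lower in mean RPKM in PD-1-/- cells, beside 0.651% and 0.467% of the 7066 genes present in 10% or more of the cells of a plate. The log2 ratio of mean RPKM, with a pseudocount of 1 as in all ratios here, ran from -0.41 for Lgals1 to 0.62 for Lgals3, with a median of -0.09 over the members and of -0.0029 over all 7066 genes. Lgals3 was detected in 11.3 percentage points more of the PD-1-/- cells (Newcombe interval 4.61 to 17.9), with means of 169.9 and 109.8 RPKM. S100a4 was detected in 7.27 points more (0.0548 to 14.4), and its log2 ratio of 0.30 became 0.53 without the highest cell of each plate. Lgals1 had a mean of 1445.0 RPKM in PD-1-/- against 1916 RPKM in WT, and its log2 ratio of -0.41 was the same without these cells. For the 8 members other than Lgals3 and S100a4 the interval of the share difference included 0. These intervals take cells as units and leave out differences between pools and plates, so they are no test of genotype. The plates also differed in Cxcr6, a chemokine receptor described below, with shares of 7.78% (WT) and 21.04% (PD-1-/-). For cells lacking Cxcr6, S100a4 had shares of 36.75% (WT) and 37.7% (PD-1-/-), and Lgals3 of 22% and 29.4%. For cells having Cxcr6, the S100a4 shares were 78.6% and 83.1%, and the Lgals3 shares 64.3% and 63.6%. The part of Cxcr6 in the genotype differences was not tested.

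With each cell thinned to 100000 reads, the share difference between the genotypes was 11.2 points for Lgals3 (4.36 to 17.9) and 7.05 points for S100a4 (-0.33 to 14.3), an interval that then included 0. Without cells that had a CD3 transcript, the log2 ratio was 0.76 for Lgals3, 0.63 for S100a4 and -0.32 for Lgals1. This setting leaves out the cell of highest S100a4 on the WT plate, which had Cd3g. It keeps that of the PD-1-/- plate, which had no CD3 transcript. The share difference was then 4.86 points for S100a4 (-3.17 to 12.8), an interval that included 0, and 10.9 points for Lgals3 (3.49 to 18.2). The plates were not alike along their rows. In rows A to H the ratio was 0.19 for Lgals3 and -0.16 for S100a4, and in rows I to P it was 1.11 and 0.88. Without the highest cell of each plate, both of which lie in rows A to H, that block gave 0.23 for Lgals3 and 0.17 for S100a4, and the share of S100a4 was 4.64 points higher there with all cells (-5.53 to 14.7). Lgals1 stayed negative in both blocks, at -0.31 and -0.50.

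**Figure D2:**
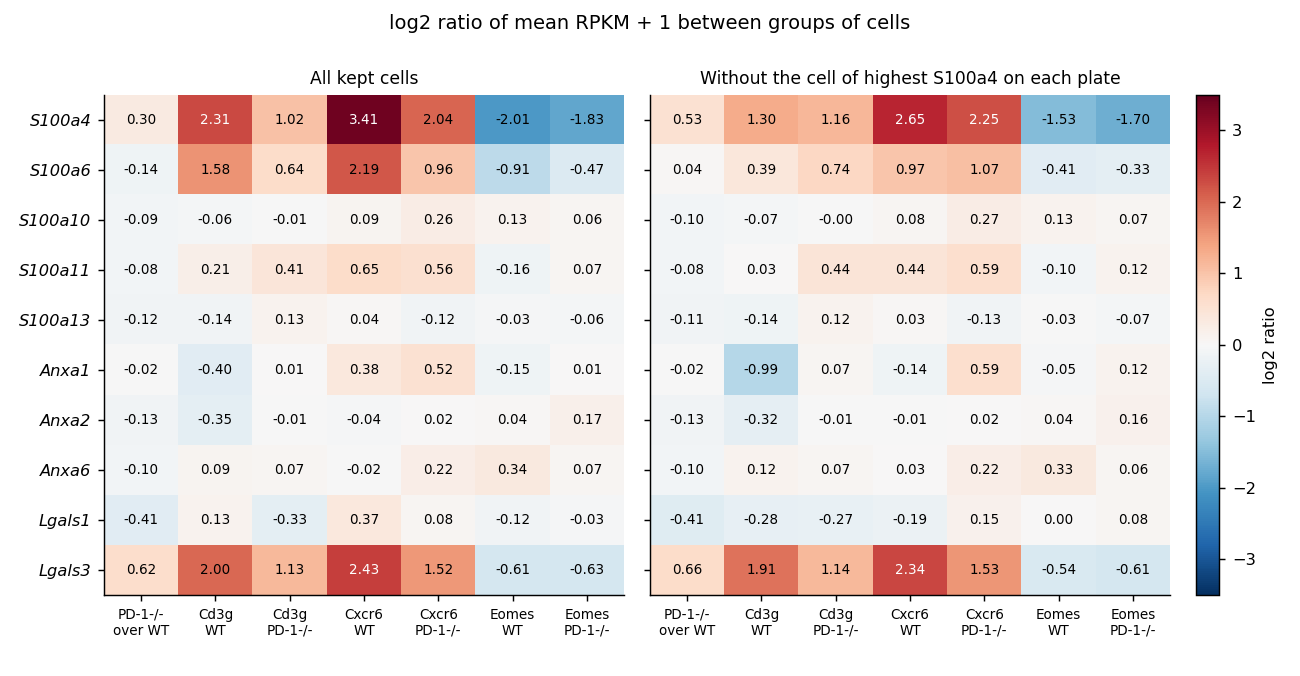
log2 ratio of mean RPKM + 1 for the 10 transcripts in 7 comparisons: PD-1-/- over WT cells, and cells with over cells without Cd3g, Cxcr6 or Eomes on each plate. Left: all kept cells. Right: the same without the cell of highest S100a4 on each plate, which brought S100a6 from 2.19 to 0.97 for Cxcr6 in WT and left S100a4 at 2.65 and Lgals3 at 2.34.

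Cxcr6, a chemokine receptor of tissue-resident lymphocytes, gave the widest separation. It was above 0 in 28 WT cells (7.78%) and 77 PD-1-/- cells (21.04%). In WT, 3 members were at least 2-fold higher in cells with Cxcr6, S100a4 (log2 3.41), Lgals3 (2.43) and S100a6 (2.19), and 0 were lower, beside 10.5% of 7854 genes higher and 13.1% lower. On the PD-1-/- plate 2 members were at least 2-fold higher, S100a4 (2.04) and Lgals3 (1.52), with S100a6 just under at 0.96, and 0 were lower, beside 4.63% and 5.79% of 7371 genes. Without the highest cell of each plate the ratios of S100a4, Lgals3 and S100a6 were 2.65, 2.34 and 0.97 in WT and 2.25, 1.53 and 1.07 in PD-1-/-. S100a6 in WT thus went from 2.19 to just under 2-fold without 1 cell, and was at 1.12 without cells that had a CD3 transcript and at 1.27 without cells that had other markers, settings that also leave out that cell.

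S100a4 was above 0 in 78.6% of WT cells with Cxcr6 and 36.7% of those without, a difference of 41.8 points (22.95 to 54.1). Its median was 2251 RPKM in the 28 WT cells, which ran from 0 to 56238 RPKM, and 0 in the others, which ran up to 16295 RPKM. The PD-1-/- shares were 83.1% and 37.7%, a difference of 45.4 points (33.98 to 54.03), with medians of 1906 and 0 RPKM. The groups overlapped on both plates, since each held cells at 0 and cells above 1000 RPKM. Thinned to 100000 reads, the share difference of S100a4 was 38.75 points in WT and 48.5 points in PD-1-/-.

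Lgals3 was above 0 in 64.3% of WT cells with Cxcr6 against 22% without (42.3 points, 23.2 to 57.9), and the PD-1-/- shares were 63.6% and 29.4% (34.2 points, 21.8 to 45.3). The WT share difference of Lgals3 was 16.8 points without cells that had a CD3 transcript (-6.92 to 45.9), 21.75 points without plate rows A and B (-0.275 to 46.7) and 23.6 points in rows I to P (-2.78 to 53.02), intervals that included 0, while the PD-1-/- difference without cells that had a CD3 transcript was 26.3 points (10.45 to 40.9). S100a6 differed in level more than in frequency in WT: its share was 78.6% against 75.6% (2.97 points, -15.65 to 15.2), and its median was 1205 against 495 RPKM. Its PD-1-/- share differed too, 90.9% against 69.9% (21.01 points, 11.15 to 28.2). Without plate rows A and B the WT log2 ratio was 2.36 for S100a4, 1.32 for Lgals3 and 0.77 for S100a6.

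The other 7 members lay between -0.12 and 0.65 on the log2 scale when split by Cxcr6. S100a11 was the highest of these in both genotypes, at 0.65 in WT (0.44 without the highest cell) and 0.56 in PD-1-/-. Anxa1 was at 0.38 in WT, turned to -0.14 without the highest cell, and was at 0.52 in PD-1-/-. Lgals1 was at 0.37 in WT, turned to -0.19 without the highest cell, and was at 0.08 in PD-1-/-. S100a10 (0.09 in WT and 0.26 in PD-1-/-), Anxa2 (-0.04 and 0.02), Anxa6 (-0.02 and 0.22) and S100a13 (0.04 and -0.12) were nearer 0.

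Marker lists moved with Cxcr6. Of the 9 T-like markers, 5 reached 10% of the WT cells with Cxcr6 and 3 of the PD-1-/- ones, against 1 among cells without it on each plate. At least 1 of them was seen in 57.1% of WT cells with Cxcr6 against 15.96% without, and in 42.9% against 18.3% on the PD-1-/- plate. Their summed level had a mean of 889 against 83.5 RPKM in WT, where it ran from 0 to 3514 RPKM with Cxcr6, where Cd4, Cd5 and Themis were at 0, and from 0 to 2513 RPKM without it. On the PD-1-/- plate it ran from 0 to 3066 RPKM, with Themis at 0, and from 0 to 3107 RPKM. All 7 NK markers reached 10% in each of these groups, and their summed level had a median of 9532 against 17787 RPKM in WT and 13332 against 18851 RPKM in PD-1-/-. The fibrosarcoma-like sum had a mean of 96.7 against 3.64 RPKM in WT and 6.69 against 5.06 RPKM in PD-1-/-. Of 5 cycling-like markers, 2 against 0 reached 10% of the cells in WT and 3 against 1 in PD-1-/-, and their summed level had a mean of 17.9 against 12.9 RPKM and of 100.4 against 16.6 RPKM. The part of these cells in the result was not tested beyond the values given without them.

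**Figure D3:**
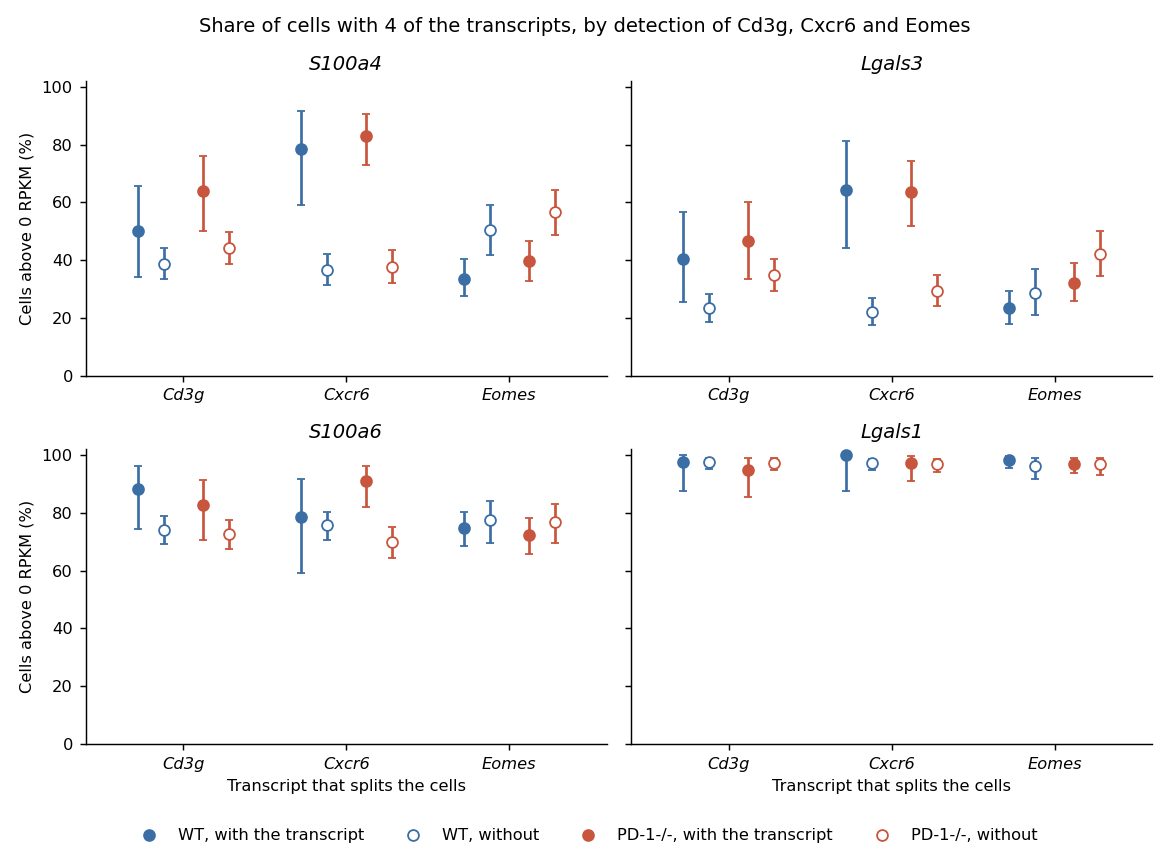
Share of cells above 0 RPKM (%) for S100a4, Lgals3, S100a6 and Lgals1 in cells with (filled) and without (open) Cd3g, Cxcr6 or Eomes, WT in blue and PD-1-/- in red, with exact 95% binomial intervals. The widest gaps are those of S100a4 and Lgals3 for Cxcr6 on both plates, 78.6% against 36.7% for S100a4 in WT, while the Lgals1 share was at least 94.8% in every group.

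Cd3g, the gamma chain of CD3, was above 0 in 42 WT and 58 PD-1-/- cells. In WT, 3 members were at least 2-fold higher in cells with Cd3g and 0 were lower, beside 8.17% of 7431 genes higher and 8.16% lower. They were S100a4 (log2 2.31), Lgals3 (2.00) and S100a6 (1.58). Without the highest cell, which had Cd3g, S100a6 was at 0.39 and S100a4 at 1.30, and Lgals3 at 1.91. S100a4 ran from 0 to 56238 RPKM with a median of 43.8 RPKM in cells with Cd3g, and from 0 to 16295 RPKM with a median of 0 in those without, so the groups overlapped. The share with S100a4 was 50% against 38.7%, with an interval of the difference from -4.15 to 26.7 points. On the PD-1-/- plate 2 members were at least 2-fold higher, Lgals3 (1.13) and S100a4 (1.02), and 0 lower, beside 5.29% and 7.15% of all genes. There S100a4 was above 0 in 63.8% of cells with Cd3g and 44.2% of those without, a difference of 19.6 points (5.61 to 32.05). The Lgals3 shares were 46.55% and 34.7%, a difference of 11.8 points whose interval included 0 (-1.58 to 25.45).

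The WT relation with Cd3g turned with the plate rows and with Cxcr6. Rows A and B held 16 of the 42 cells, and without these rows S100a4 was at -1.47 and S100a6 at -0.23, and 0 members were 2-fold higher. The share of all genes was not computed without these rows. Without cells that had Cxcr6, S100a4 was at -0.53 and S100a6 at -0.08 in WT. Lgals3 was then at 1.09 in mean, but its share difference was -7.16 points. Anxa1 went the other way in WT, with a share of 45.2% with Cd3g and 61.01% without (-15.8 points, -30.7 to 0.0194) and a log2 ratio of -0.40, which was -0.99 without the highest cell. Its ratio on the PD-1-/- plate was 0.01. The PD-1-/- relation with Cd3g also changed without cells that had Cxcr6. The share differences were then 7.905 points for S100a4 (-9.58 to 26.4), -1.03 for S100a6 (-19.97 to 13.9) and -9.695 for Lgals3 (-22.01 to 8.77). The log2 ratios were 0.91, 0.10 and 0.36 in this order.

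T-like markers moved with Cd3g: 4 of 9 reached 10% of the WT cells with it and 7 of 9 of the PD-1-/- ones, against 0 in the cells without. Their sum ran from 0 to 3514 RPKM with and from 0 to 1001 RPKM without Cd3g in WT, where Themis was at 0 in both, and from 0 to 3107 and from 0 to 555 RPKM in PD-1-/-. All 7 NK markers reached 10% in these groups, and their sum had a median of 7736 against 18365 RPKM in WT and of 10989 against 18808 RPKM in PD-1-/-. The fibrosarcoma-like sum had a mean of 60.4 against 4.34 RPKM in WT and went the other way in PD-1-/-, at 0.0853 against 6.41 RPKM, with Col1a1, Col1a2 and Col3a1 at 0 in the cells with Cd3g. Their part in the result was not tested.

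CD3 transcripts and Cxcr6 occurred in many of the same cells, so they were crossed. In cells with Cxcr6 and no CD3 transcript, S100a4 was above 0 in 8 of 10 WT cells and 37 of 44 PD-1-/- cells, with medians of 2579 and 1949 RPKM. In cells with a CD3 transcript and no Cxcr6 it was above 0 in 13 of 47 in WT and 20 of 50 in PD-1-/-, and the median was 0 on both plates. Cells with neither had S100a4 in 38.2% of cases in WT and 37.2% in PD-1-/-, and cells with both in 14 of 18 and 27 of 33. S100a4 thus went with Cxcr6 whether or not a CD3 transcript was seen. Among cells without a CD3 transcript its log2 ratio between cells with and without Cxcr6 was 2.65 in WT, which rests on 10 cells, and 2.17 in PD-1-/-.

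Lgals3 was above 0 in 4 of 10 WT cells with Cxcr6 alone, 14 of 18 with both, 7 of 47 with a CD3 transcript alone and 23.2% of those with neither. The PD-1-/- counts were 25 of 44 with Cxcr6 alone, 24 of 33 with both, 12 of 50 with a CD3 transcript alone and 30.5% of those with neither. The highest group mean of S100a4, 5618 RPKM in the 18 WT cells with both, was 2639.8 RPKM without the cell that stood apart.

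**Figure D4:**
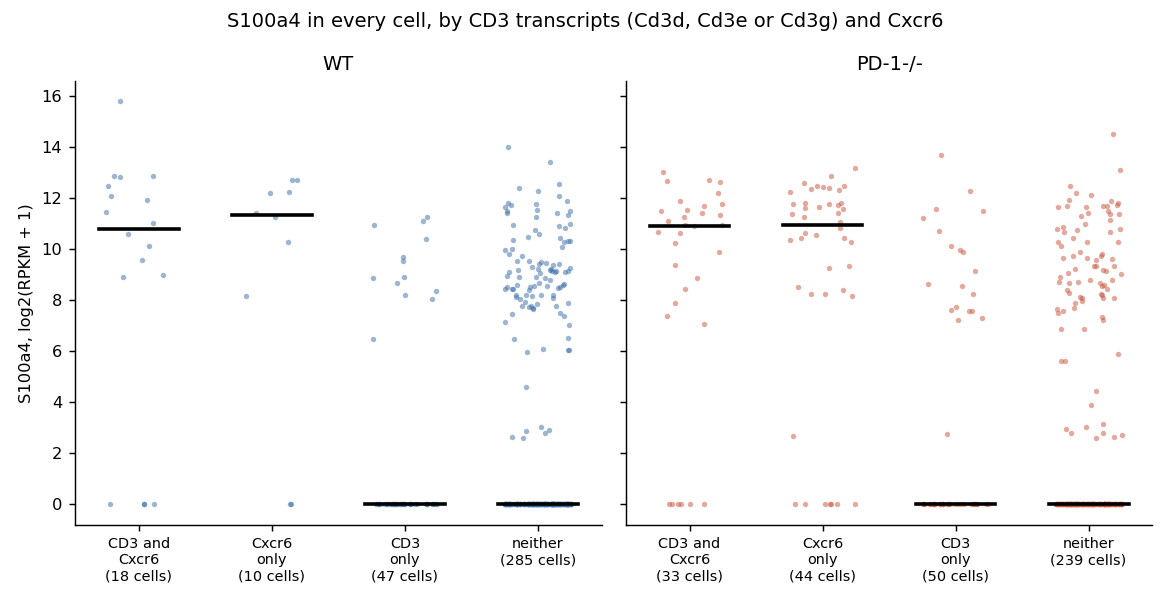
S100a4 in every kept cell, as log2(RPKM + 1), in cells with a CD3 transcript (Cd3d, Cd3e or Cd3g) and Cxcr6, Cxcr6 only, a CD3 transcript only, and neither, for WT (left) and PD-1-/- (right). Black lines are medians: those of both groups with Cxcr6 lie between 1797 and 2579 RPKM and those of both groups without Cxcr6 at 0, on both plates.

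Eomes, a T-box factor of conventional NK cells, was above 0 in 61.9% of cells on the WT plate and 55.2% on the PD-1-/- plate. In WT, 1 member, S100a4 (log2 -2.01), was at least 2-fold lower in cells with Eomes and 0 were higher, beside 3.00% of 7167 genes lower and 2.33% higher. On the PD-1-/- plate it was again S100a4 alone (-1.83) that was 2-fold lower, with 0 higher, beside 2.54% and 2.41% of 7092 genes. Without the highest cell of each plate, both of which lacked Eomes, S100a4 was at -1.53 and -1.70. It was above 0 in 33.6% of WT cells with Eomes and 50.4% of those without (-16.7 points, -26.9 to -6.26), and the PD-1-/- shares were 39.6% and 56.7% (-17.1 points, -26.9 to -6.81). Among cells that had neither Cxcr6 nor a CD3 transcript the shares were closer, 34.4% with Eomes against 45.5% without in WT and 34.4% against 42.4% in PD-1-/-. The T-like list was seen in 15.3% of WT cells with Eomes and 25.5% of those without, and in 17.8% against 30.5% in PD-1-/-, and its part was not tested.

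Anxa6 differed the other way, with a share of 94.2% in WT cells with Eomes and 83.2% in those without (10.96 points, 4.36 to 18.5), and of 91.1% against 87.8% in PD-1-/- (3.28 points, -3.02 to 9.99). S100a13 had 70.8% against 59.1% in PD-1-/- (11.65 points, 1.85 to 21.3) and 73.99% against 67.9% in WT (6.11 points, -3.38 to 15.9). Neither reached 2-fold in mean RPKM, Anxa6 being at 0.34 in WT and 0.07 in PD-1-/- and S100a13 at -0.03 and -0.06. Lgals3 had a ratio of -0.61 in WT and -0.63 in PD-1-/-, and in WT this was 0.47 without plate rows A and B.

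S100a4, S100a6 and Lgals3, a trio chosen after their values were seen, were all present in 13.6% of cells in WT (10.2 to 17.6) and 22.95% in PD-1-/- (18.7 to 27.6). They were all present in 14 of the 28 WT cells with Cxcr6 and 10.54% of those without, and in 43 of 77 and 14.2% on the PD-1-/- plate. Of the cells with at least 1000 RPKM of S100a4, 32.7% in WT and 55.7% in PD-1-/- had Cxcr6, and 33 and 32 cells had neither Cxcr6 nor a CD3 transcript.

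Correlations across the cells of a plate describe those cells, which share a preparation and differ in depth. Over the 45 pairs of members the median Spearman rho of log2(RPKM + 1) was 0.09 over the 360 WT cells and 0.12 over the PD-1-/- cells, too weak to be a finding. The gene most like S100a4, of 6404 compared, was Itga1, with rho of 0.36 in WT and 0.43 in PD-1-/-. Itga1 encodes CD49a, the alpha subunit of a collagen receptor. Next was S100a6 (0.34 and 0.41). S100a4 (0.27 and 0.38) and Itga1 (0.26 and 0.34) were also the genes most like Lgals3. S100a6 was most like S100a4 and Lgals1 (0.33 and 0.26), and Lgals1 most like Actb (0.24 and 0.35) and S100a6. The rho of S100a4 with the number of detected genes was of similar size, 0.34 and 0.27, and that of Lgals3 was 0.18 and 0.04. For S100a6 it was 0.21 and 0.22, and for Lgals1 0.21 and 0.27.

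The leading genes of the other members had lower values. They were S100a11 (0.16 and 0.28) and Cd2 (0.23 and 0.20) for S100a10, S100a4 (0.22 and 0.28) and Gapdh (0.18 and 0.27) for S100a11, and Tmsb4x (0.11 and 0.25) and Ptprcap (0.11 and 0.18) for S100a13. They were S100a4 (0.18 and 0.22) and S100a6 (0.21 and 0.15) for Anxa1, Prf1 (0.19 and 0.23) and Actb (0.16 and 0.26) for Anxa2, and Lsp1 (0.19 and 0.22) and Ucp2 (0.15 and 0.24) for Anxa6. The rho of S100a11 with the number of detected genes, 0.28 and 0.35, was above those of its leading genes. That of Anxa2 was 0.20 and 0.17, of Anxa6 0.15 and 0.17, and of Anxa1 0.09 and 0.20. It was 0.08 and 0.04 for S100a10 and 0.04 and 0.15 for S100a13.

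Position on the plate moved with S100a4 and Lgals3. On the WT plate the 38 cells of rows A and B had S100a4 in 60.5% (43.4 to 75.96) and Lgals3 in 52.6% (35.8 to 69.02), and the cells of rows C to P in 37.6% and 22.05%. These rows also held Cxcr6 in 36.8% and Cd3g in 42.1% of the WT cells, against 4.35% and 8.07% of the rest. The 45 PD-1-/- cells of rows A and B were not above the others, with S100a4 in 35.6% and Lgals3 in 31.1% against 48.9% and 37.4%. Outside these rows the log2 ratio between PD-1-/- and WT was 1.05 for Lgals3 and 0.98 for S100a4. The ratio of S100a4 between cells with and without Cxcr6 was positive in rows A to H (3.79 in WT and 1.65 in PD-1-/-) and in rows I to P (2.31 and 2.40). How cells were placed on the plates is not given in the sources used here, and the part of plate position in these values was not tested.

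**Figure D5:**
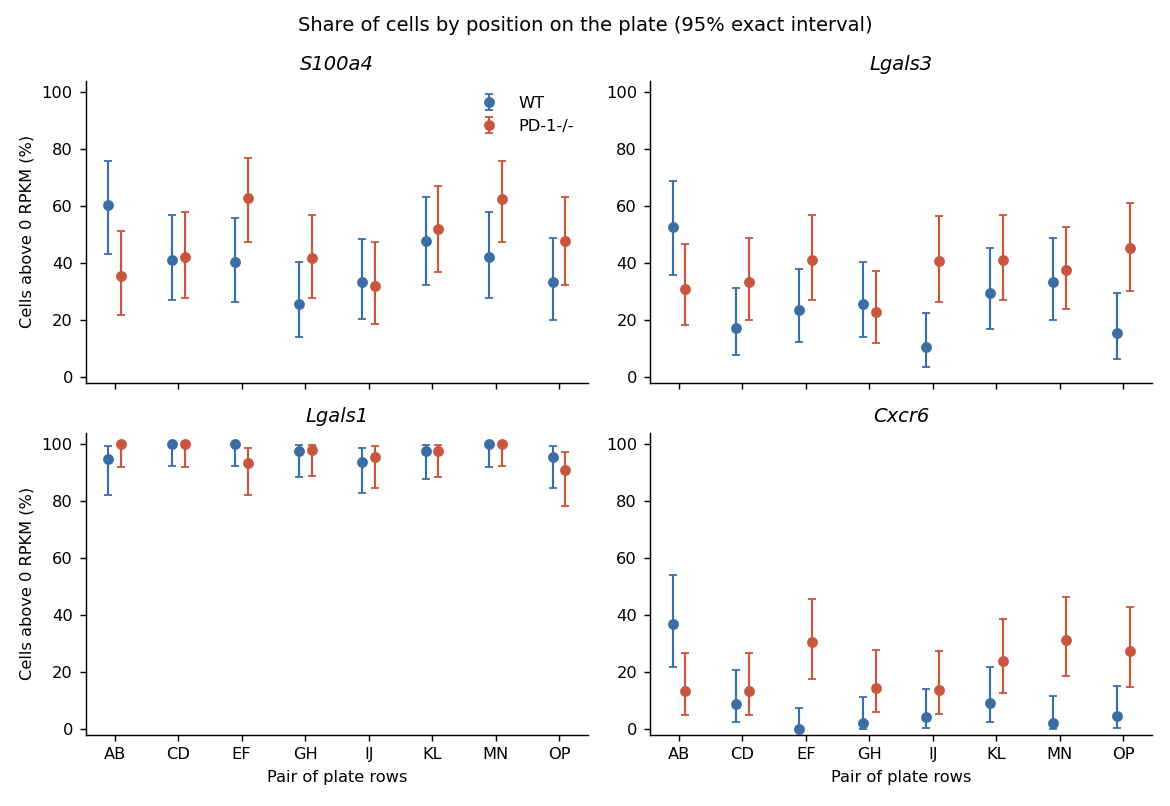
Share of cells above 0 RPKM (%) for S100a4, Lgals3, Lgals1 and Cxcr6 in each pair of plate rows, WT in blue and PD-1-/- in red, with exact 95% binomial intervals. Rows A and B of the WT plate stand above the other WT rows for S100a4 (60.5%), Lgals3 (52.6%) and Cxcr6 (36.8%), and Lgals1 lies between 90.9% and 100% throughout.

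The other members of the families were sparse. Of 27 further S100, annexin and galectin genes in the files, 7 reached 10% of the kept cells of a plate and 20 did not, 5 of them being at 0 in every kept cell. Lgals9, a tandem-repeat galectin, was the most frequent with 56.4% in WT and 59.3% in PD-1-/-, followed by Anxa11 with 46.4% and 47.5%, Anxa5 with 34.7% and 37.98%, S100a1 with 23.3% and 20.5%, Anxa7 with 21.9% and 25.4%, Lgals8 with 18.6% and 19.1%, and Anxa4 with 10% and 10.9%. S100a8 and S100a9, the S100 proteins of neutrophils and monocytes, each had a share of 1.11% in WT, and 0.546% and 0.820% in PD-1-/-. Of the 7, 0 were 2-fold apart in 6 of the 7 comparisons, and in the other, Cd3g in PD-1-/-, 1 was 2-fold lower, S100a1 at -1.42, beside 7.15% of all genes.

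Of 14 known partners and receptors, 8 passed the same limit (Ahnak, Cacybp, Myh9, Bsg, Lgals3bp, Mgat5, Lag3 and Ptprc). Ahnak, a giant scaffold bound by the complex of Anxa2 and S100a10, had shares of 92.2% in WT and 87.2% in PD-1-/-, and Myh9, the myosin heavy chain bound by S100a4, of 84.2% and 82.5%. Lag3, an inhibitory receptor that galectin-3 can bind, was 2-fold higher with Cxcr6 on both plates, with a log2 ratio of 1.26 in WT (32.1% against 12.05% of the cells) and 1.08 in PD-1-/- (33.8% against 17.99%), and with Cd3g in WT (1.26), beside 10.5%, 4.63% and 8.17% of all genes that were 2-fold higher in these comparisons. Mgat5, the enzyme that starts the branched glycans to which galectins bind, was at -1.89 with Cd3g and -1.20 with Cxcr6 in WT, where 7.14% and 10.7% of those cells had it, and at 0.54 and -0.28 in PD-1-/-. In WT 8.16% and 13.1% of all genes were 2-fold lower in these splits. The other 6 partners were under 2-fold in all 7 comparisons.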

How the data were processed

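SMART-SEQ2 libraries of single NK cells were made in 768 wells on 2 plates. The authors deposited RPKM per gene and well, 24490 entries, on which no further scaling is stated. The submitters' processing notes name TopHat, Cufflinks, mm9 and mm10 without versions or roles, so the build behind the values is not given in the sources used here, and positions are those of RefSeq on GRCm38.p6.

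Groups were taken from the genotype in the labels. Wells with 1000 to 3500 genes above 0 were kept, counting genes in at least 3 wells (42 wells removed), and no doublet caller was run. A transcript was present above 0 RPKM. Ratios are log2 of mean RPKM + 1, set beside all genes in at least 10% of the cells of either group. Shares carry exact (Clopper-Pearson) 95% intervals and their differences Newcombe intervals, which cover counting error only. With 1 pool per genotype no test was made. Whole reads were recovered for 9781 genes from the equal steps of low RPKM values (99.5% of 688838 values under 60 reads came out whole, at a tolerance of 0.0003 of the value), and used for depth and for thinning to 100000 reads. In the kept cells they ran from 1231 to 477338 in WT and from 1720 to 559046 in PD-1-/-, and 27 and 14 cells had fewer than 100000. The steps were tested on simulated data.

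The members, the splitting genes and the family, partner and marker lists were chosen with earlier results of these data known. Named besides the members are, for each, the 2 genes of highest mean Spearman rho among those above 0 in at least 10% of the cells of each plate, and the listed family and partner genes above that limit. Alternatives changed the wells kept, plate rows, depth, detection limit, pseudocount, scaling, gene filter and the cells with CD3 transcripts. Requiring 10 reads, leaving out cells with other markers, cells with Cxcr6 (for Cd3g) and the cell of highest S100a4 on each plate (over all rows and in rows A to H) were chosen after seeing the data. Overlapping and near-identical genes came from GENCODE. Tools were Python 3.11.15, NumPy 2.4.6, pandas 2.3.3, SciPy 1.17.1, Matplotlib 3.10.9 and BLAST 2.17.0.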

Additional observations from a re-analysis of the deposited data

Results flagged for a closer look

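Some transcript was seen in the 12 wells with fewer than 1000 genes, which enter no comparison. S100a6 had a read in 5 of these wells and Lgals1 in 7, with no control wells to set them against.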

How the results depend on the processing

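The difference by Cxcr6 kept its sign under every alternative for S100a4, with log2 ratios from 2.31 to 3.79 in WT and from 1.65 to 2.40 in PD-1-/-, and for Lgals3, from 1.32 to 3.15 and from 1.04 to 1.61. The lower S100a4 with Eomes likewise ran from -2.58 to -1.07 in WT and from -2.24 to -1.62 in PD-1-/-. Between the genotypes S100a4 ran from -0.16 (rows A to H, 0.17 there without the highest cell of each plate) to 0.98, Lgals3 from 0.19 to 1.11 and Lgals1 from -0.50 to -0.31. Lgals3 was the 1 member at least 2-fold higher in PD-1-/- without rows A and B, and likewise 1 in rows I to P. For these settings the share of all genes was not computed. The shares of all genes were recomputed for genes filtered by mean RPKM instead of frequency, and without the highest cell of each plate. Of these recomputed shares 14 moved and 14 stayed near their first value. The shares set beside the members thus depend on such choices.

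For Cd3g in WT, the members 2-fold higher were 0 without rows A and B, 0 in rows I to P and 1 (Lgals3) without cells with Cxcr6, and in these settings S100a4 was at -1.47, -0.95 and -0.53 and S100a6 at -0.23, -0.46 and -0.080. Its share differences turned to -2.37 points for S100a6 in rows I to P, and for Lgals3 to -3.07 without rows A and B and -7.16 without cells with Cxcr6. The members 2-fold lower were 2 (S100a4 and Anxa1) without rows A and B, and 1 (Anxa1) each under narrower limits on genes per well, with thinned reads and without cells with other markers. For Cd3g in PD-1-/-, 1 member was 2-fold higher without rows A and B, and 0 in rows I to P, when split by any of Cd3d, Cd3e and Cd3g, and without cells with Cxcr6. In rows A to H, 3 members were 2-fold lower with Eomes in WT (S100a4, S100a6 and Lgals3) and 2 in PD-1-/- (S100a4 and Lgals3). Without the highest cell of each plate these were 1 (S100a4, with S100a6 at -0.47 and Lgals3 at -0.90) and 2, and 1 member (Anxa1) was 2-fold lower with Cd3g in WT. For the settings of rows, genes per well, depth, markers, CD3 and Cxcr6 above, the share of all genes was not computed. These counts thus have no such share beside them, and the causes were not tested.

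No paired analysis was possible because the results come from no test and the numbers in the labels name wells, not pairs. S100a11 rested on the fewest reads where detected, a median of 17.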
